A study of Mus musculus with 8 samples.

Results

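Ptbp1 and Mbnl2 encode RNA-binding proteins that switch exons on and off during development, and transcripts of both genes were themselves listed with changed exon use when Srsf3 was deleted in cultured mouse hepatocytes. Every row named Ptbp1 or Mbnl2 in either deposited table was taken, which gave 6 of 1360 rows. Of these, 2 were among the 862 local splicing variations, with 5 junctions, and 4 were among the 498 events of junction usage. Ptbp1 had 1 variation and 3 events, and Mbnl2 had 1 variation and 1 event. The genes were chosen because they were already known to be listed with a change, so their presence in the tables is not a finding.

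The hepatocytes, the main working cells of the liver, came from C57BL/6J mice with floxed Srsf3 alleles. They were kept in culture and exposed for 48 h to an infecting adeno-associated virus (AAV). The 4 AAV-Cre libraries received Cre recombinase, which cuts out the floxed part of Srsf3, a gene for a splicing factor of the SR family. The 4 AAV-GFP libraries carried the same floxed alleles and received green fluorescent protein. No group with Cre and without floxed alleles is among the samples, so the deletion and Cre itself cannot be told apart. The labels do not say which promoter drives Cre, whether cultures came from separate animals or whether animals were pooled. The tables hold splicing values and no expression levels, so hepatocyte markers could not be checked and the amounts of Ptbp1 and Mbnl2 RNA are unknown. Percent spliced in (PSI) is here a fraction of 0 to 1, with 1 value per group, so no spread between libraries can be given. In bulk RNA, a shift of PSI within each cell and a change in the mix of cells cannot be told apart.

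PTBP1, the polypyrimidine tract binding protein, binds runs of pyrimidines near splice sites and mostly keeps exons out of mRNA. Its level drops in developing neurons and muscle, which lets tissue-specific exons in. It has 4 RNA recognition motifs, and an alternative exon lengthens the linker between the second and the third of them; the form without this exon is known as the weaker repressor. PTBP1 also limits its own level by skipping a later exon, which sends the mRNA to nonsense-mediated decay. MBNL2, a muscleblind-like protein, binds RNA through zinc fingers and favours adult over fetal exon patterns; alternative exons after the zinc fingers alter its C-terminal part. The name developmental splicing regulators rests on this background, and nothing in the tables tests it.

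The 3 exons below are shown because the largest changes and the decay-linked exon of Ptbp1 lie there. They are in mm10 coordinates on the plus strand, read from the GENCODE vM21 transcripts. Capitals mark the exon, and lower case marks 20 nt of the exon before it and 12 nt of the exon after it. No annotated exon on the opposite strand overlaps any of them. For both exons with a changed local variation, the joint made by skipping follows, with the downstream exon in capitals.
Ptbp1 exon of 78 nt, chr10:79860117-79860194: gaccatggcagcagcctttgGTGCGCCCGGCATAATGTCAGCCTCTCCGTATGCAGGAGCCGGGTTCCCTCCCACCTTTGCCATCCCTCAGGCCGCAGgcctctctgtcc
Ptbp1 with this exon skipped: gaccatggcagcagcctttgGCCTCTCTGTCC
Ptbp1 exon of 34 nt, chr10:79862014-79862047: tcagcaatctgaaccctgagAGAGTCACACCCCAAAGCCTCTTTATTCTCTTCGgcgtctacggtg
Mbnl2 exon of 95 nt, chr14:120404638-120404732: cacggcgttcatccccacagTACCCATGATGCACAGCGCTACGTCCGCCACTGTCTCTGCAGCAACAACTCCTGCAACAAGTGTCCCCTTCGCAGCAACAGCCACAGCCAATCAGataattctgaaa
Mbnl2 with this exon skipped: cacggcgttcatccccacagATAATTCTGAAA

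The floxed gene was looked at first, as a check of the group names. In the authors' deposited table, the Srsf3 junction from exon 1 to exon 2 stood at 0.998 with AAV-GFP and at 0.157 with AAV-Cre.

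By its local variation, Ptbp1 skipped its linker exon more in AAV-Cre. No test was added, and the authors' probability for this change was not used here. The gene (ENSMUSG00000006498.16, chromosome 10, 79854427 to 79864771, plus strand) has 16 transcripts with 23 junctions in GENCODE vM21. The exon of 78 nt is exon 8 of 14 in Ptbp1-216, lies within the coding sequence and adds 26 codons without a shift of the reading frame. With it the coding sequence of that transcript has 555 codons, and without it 529. Among the transcripts that cover this place, 3 contain the exon and 3 skip it, and the protein-coding ones are 1 and 2 of these.

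The local variation of Ptbp1 counts the junctions that enter the exon of 146 nt after the linker exon. The junction from the linker exon was used at a PSI of 0.463 with AAV-GFP and 0.102 with AAV-Cre (the authors' deposited table). Its counterpart from the exon before, which skips the linker exon, moved from 0.537 to 0.898 (the authors' deposited table). Both forms were thus near balance in AAV-GFP, and the skipped form made up most of the junction usage in AAV-Cre. The ratio of skipping to inclusion was 1.16 with AAV-GFP and 8.8 with AAV-Cre, 7.59 times as high. The change of PSI was -0.361 from the group values and -0.379 as the authors' expected change in their deposited table. The junction that enters the linker exon from the exon before it is not part of this variation.

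**Figure D1:**
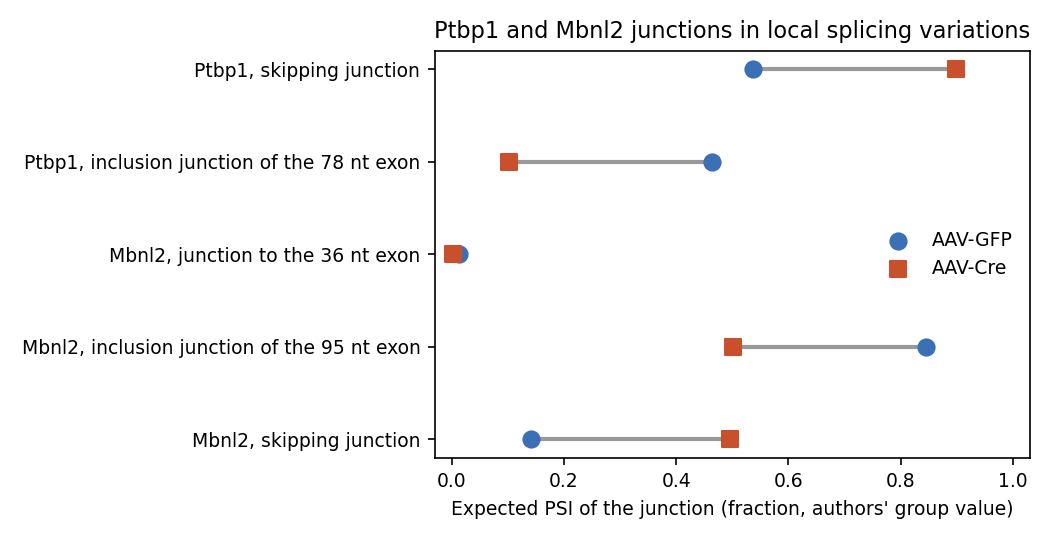
Expected PSI of each of the 5 junctions in the local splicing variations of Ptbp1 and Mbnl2 (x axis, fraction), with the authors' AAV-GFP group value as a circle and their AAV-Cre group value as a square. Both skipping junctions are higher and both inclusion junctions lower in AAV-Cre; there are no error bars because the table holds 1 value per group.

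The junction usage table gave the same direction for this exon with a smaller size that did not pass. Its change was -0.136 in the authors' deposited table, with p = 0.00941 and q = 0.311. An event counted as called when its q-value did not exceed 0.05 and its change was at least 0.1. This rule was met by 57 of 498 junction usage events (11.4%) and by 16 of 131 cassette exon events (12.2%). By q-value the linker exon ranked 63 of the 131 cassette exons, and its q-value was close to their median of 0.318.

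The decay-linked exon of Ptbp1 was listed without passing. This exon of 34 nt is exon 10 of 14 in Ptbp1-216, and its length is not a multiple of 3. Left out, it moves the first stop codon to 79862473, 361 nt before the last exon junction, and the open reading frame shrinks to 379 codons. Both annotated transcripts that skip it are classed as subject to nonsense-mediated decay, and no protein-coding transcript skips it. The change in its inclusion was -0.079 in the authors' deposited table, with p = 0.0172 and q = 0.412. PSI counts only RNA that is present, so skipped transcripts lost to decay would be missed. How far this affects the value was not tested. No local variation was listed at this exon.

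A small exon near the start of Ptbp1 barely differed in size. This exon of 31 nt (chromosome 10, 79856504 to 79856534) is exon 2 of 14 and lies within the coding sequence. The authors' deposited table gave it a change of 0.009, with p = 0.0462 and q = 0.629. In size it ranked 127 of 131 cassette exons. None of the 3 Ptbp1 exons was called by junction usage, and all 3 had the authors' unadjusted p below 0.05, which is the condition for being in that table.

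In Mbnl2, both tables gave lower inclusion of the exon of 95 nt in AAV-Cre, and the event by junction usage passed. The gene (ENSMUSG00000022139.17, chromosome 14, 120275669 to 120431697, plus strand) has 10 transcripts with 16 junctions in GENCODE vM21. The exon of 95 nt is exon 8 of 9 in Mbnl2-201 and stands just before the last exon; 5 annotated transcripts contain it whole, all of them protein-coding. A single transcript skips it, and this one has no annotated coding sequence. With the exon, the stop codon of Mbnl2-201 starts 12 coding nt into the final exon and the coding sequence has 373 codons. Because 95 is not a multiple of 3, skipping shifts the frame; the reading frame then stops further into the same final exon, at 120429060, after 379 codons. The stop thus stays in the last exon, unlike that of Ptbp1 without its exon of 34 nt.

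The local variation of Mbnl2 counts the 3 junctions that leave the exon of 154 nt before it. The junction to the exon of 95 nt was used at a PSI of 0.845 with AAV-GFP and 0.501 with AAV-Cre (the authors' deposited table). The skipping junction, which reaches the final exon directly, moved from 0.142 to 0.496 (the authors' deposited table). Inclusion was thus the main form in AAV-GFP, while inclusion and skipping were nearly equal in AAV-Cre. The ratio of skipping to inclusion was 0.168 with AAV-GFP and 0.99 with AAV-Cre, 5.89 times as high. The third junction leads to an exon of 36 nt (chromosome 14, 120403336 to 120403371), which keeps the frame and is present in 2 annotated transcripts. This junction stood at 0.013 with AAV-GFP and 0.003 with AAV-Cre (the authors' deposited table), so both groups used it little. An exon of 54 nt just upstream (chromosome 14, 120395712 to 120395765), also alternative in the annotation, is listed in neither table.

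**Figure D2:**
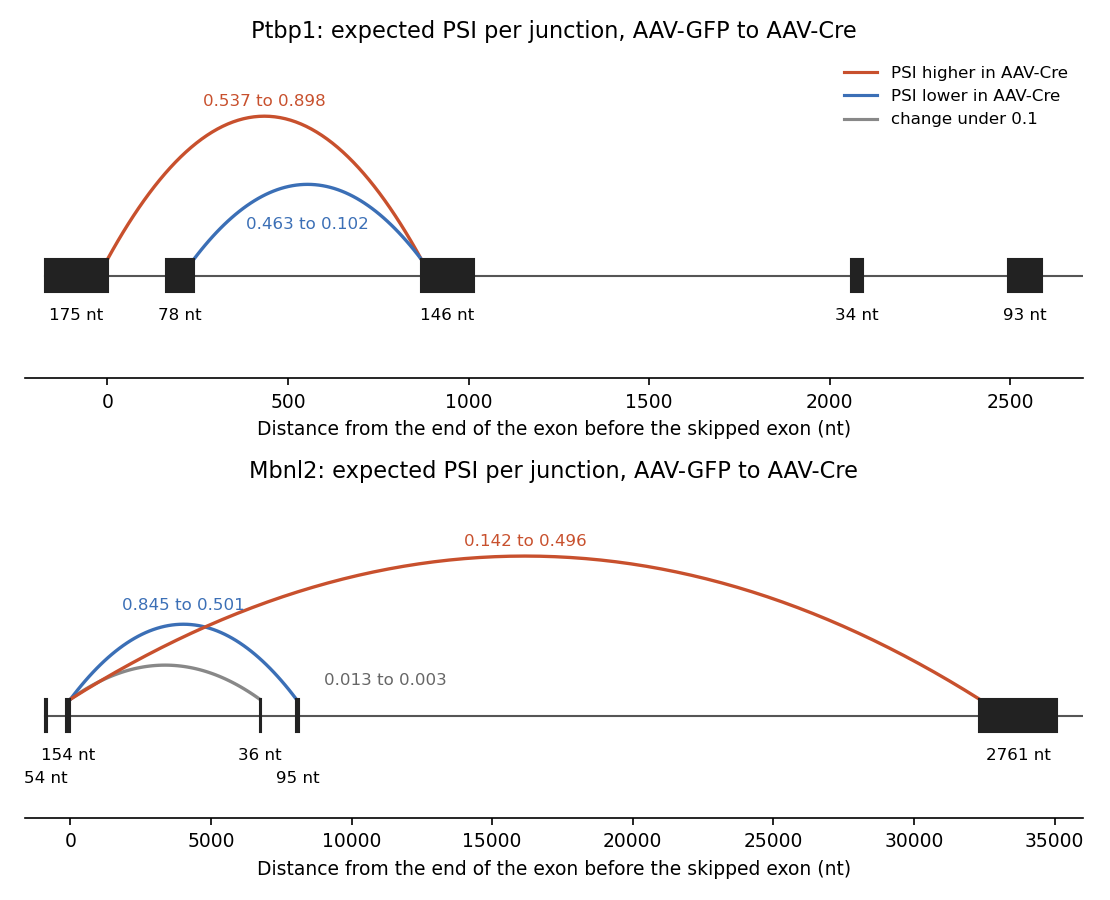
Exons of Ptbp1-216 and Mbnl2-202 as black boxes drawn to scale (an outline widens the smallest), with their lengths, against the distance from the end of the exon before the skipped exon (nt); arcs are the measured junctions with their authors' PSI in AAV-GFP and AAV-Cre. Red arcs, higher in AAV-Cre, are the skipping junctions of both genes (0.537 to 0.898 and 0.142 to 0.496), and arc height has no meaning.

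By junction usage, inclusion of the Mbnl2 exon of 95 nt fell in AAV-Cre and passed both thresholds narrowly. The authors' deposited table gave it a change of -0.113, with p = 0.000338 and q = 0.0479. It ranked 18 of 131 cassette exons by q-value and 90 of 131 by size of change, where the median size was 0.225. Of the 131 cassette exons, 11 were called lower in AAV-Cre (8.4%), this exon among them. With a size of at least 0.2 it would not be called.

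**Figure D3:**
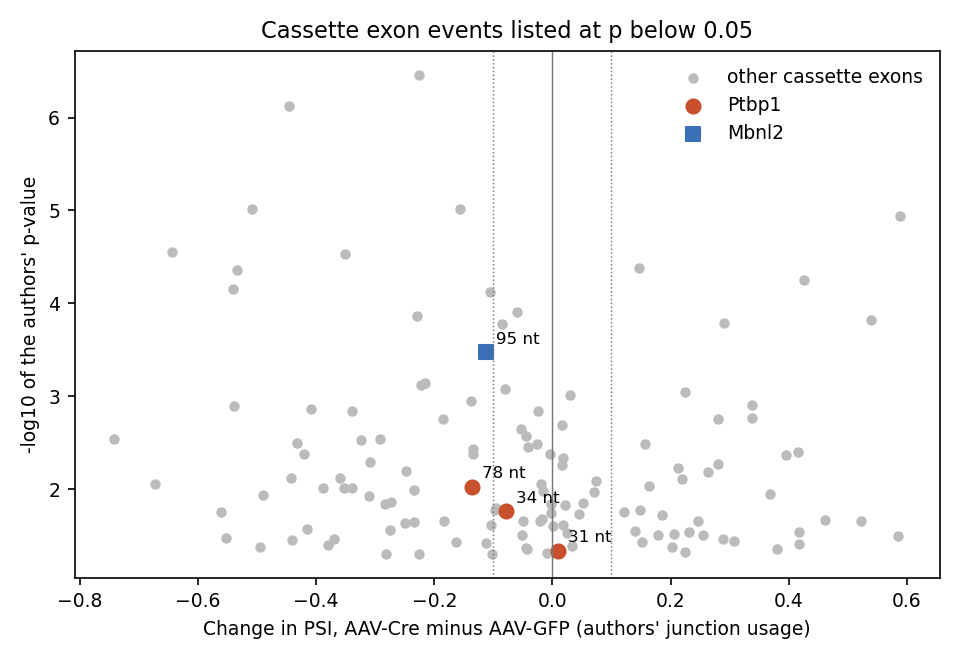
Change in PSI by junction usage (x axis, AAV-Cre minus AAV-GFP) against -log10 of the authors' p-value (y axis) for the 131 listed cassette exon events, with Ptbp1 as circles and Mbnl2 as a square, labelled by exon length; dotted lines mark changes of 0.1 either way. The Mbnl2 exon (-0.113) and the Ptbp1 linker exon (-0.136) lie just beyond the lower line, and the other Ptbp1 exons lie inside.

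Set against the whole of the local table, the members were of ordinary size. Of all 6866 junctions, 1563 changed by at least 0.2 (22.8%), 11.4% higher and 11.4% lower. Of the 5 member junctions 4 did, 2 in each direction, but the genes were chosen from this contrast and nothing is read from that count. Nearly all variations in the table had such a junction (94.8%), so it holds few unchanged ones to compare with. By its most changed junction, Ptbp1 (0.361) ranked 135 and Mbnl2 (0.354) ranked 144 among 439 variations outside windows of 100 kb with 8 or more variations. The median there was 0.307.

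The tables differed in the size they gave the same exon, and both members lay at one end of that spread. By coordinates 44 cassette exons were in both tables, and 43 of them had the same sign. For the Ptbp1 linker exon the local change was 2.66 times that by junction usage, and for the Mbnl2 exon of 95 nt it was 3.04 times. Among the 42 exons of other genes this ratio had a median of 1.3 and ran from 0.505 to 2.56, so none of them reached either member. Those with the smallest changes by junction usage also had ratios above that median. They were Cd68 (-0.106, ratio 1.85), Eif4a2 (-0.095, ratio 2.05) and Gas5 (-0.085, ratio 2.56). This is a description of exons that each table had already selected for a change, with no test. The local variation and the junction usage event do not weigh the same junctions, and the part of this in the ratio was not tested.

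**Figure D4:**
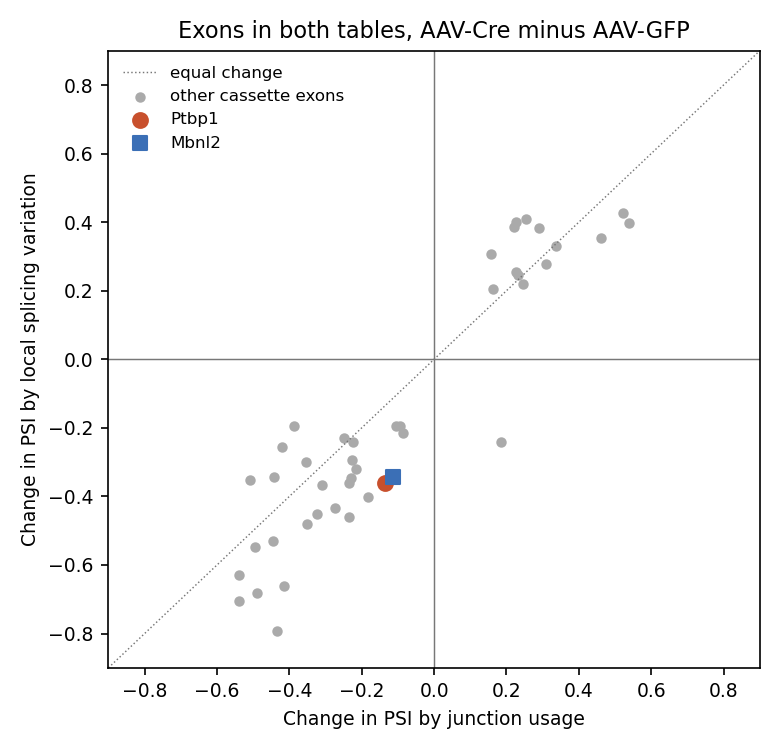
Change in PSI of the 44 cassette exons found in both tables, by junction usage (x axis) and by local splicing variation (y axis), AAV-Cre minus AAV-GFP; the dotted line marks equal change. Ptbp1 (circle; -0.136 and -0.361) and Mbnl2 (square; -0.113 and -0.344) lie well below that line, close to each other.

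Both skipped exons were shorter than the median of 123 nt over 180116 internal exons of protein-coding transcripts in GENCODE vM21. Their GC content was 65.4% in Ptbp1 and 56.8% in Mbnl2, against a median of 50.8%. They differed in frame: 78 nt is a multiple of 3, as for 40.4% of those internal exons, and 95 nt is not. The RNA strand of the exons was searched for CATC, a motif bound by SRSF3. The Ptbp1 linker exon held it 1 time, overlapping a TGCC, and 30.9% of 1324 internal exons of that length hold it. The Mbnl2 exon of 95 nt held none, while 40.7% of 1047 internal exons of its length do. The Ptbp1 exon of 31 nt, which barely differed, also held CATC 1 time, and 11.5% of 157 exons of that length hold it. The Ptbp1 exon of 34 nt and the Mbnl2 exon of 36 nt held none. TCTT, a motif bound by PTBP1, occurred 2 times in the Ptbp1 exon of 34 nt, and 13.8% of 167 exons of that length hold it. It occurred in neither the linker exon nor the Mbnl2 exon. For MBNL proteins 4 motifs were counted together, TGCT as well as CGCT and likewise TGCC as well as CGCC. The linker exon and the Mbnl2 exon each held 2 matches, and 64.3% and 67.6% of exons of their lengths hold at least 1. A match in these letters is not shown to be a bound site.

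Other regulators of this kind were looked up by name. None of 5 further members of the PTB family and its partners (Ptbp2, Ptbp3, Raver1, Raver2, Matr3) and neither Mbnl1 nor Mbnl3 appeared in either table. Of 29 other regulators of developmental splicing, such as the CELF, RBFOX and ESRP proteins, only Qk was listed, a STAR-family RNA-binding protein named here after its values were seen. Its largest change at a 3' splice site was -0.509 in the authors' deposited table (p = 0.00507, q = 0.228). Thus 0 of these 36 genes were called and 1 had an unadjusted p below 0.05 by junction usage. Over all 21923 protein-coding genes of GENCODE vM21, 2.79% were listed and 1.58% called in either table, so counts this low do not set the 36 genes apart.

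Genes known as targets of PTB or MBNL proteins were called in 6 of 52 cases. The share called over all protein-coding genes was 1.58%, and how many of those were measurable here is unknown. The lists were chosen with earlier results of these data known. A gene counted when any of its junctions or events was called, whether or not a PTB or MBNL protein acts there. No excess of targets is therefore read from these counts. By list, 4 of 24 PTB targets and 2 of 29 MBNL targets were called, with 1 gene in both lists. Pkm, the pyruvate kinase gene whose paired exons PTB proteins help to choose, had the largest change among the 6 called genes. Its junction between chromosome 9 positions 59675195 and 59678044 moved from 0.279 with AAV-GFP to 0.850 with AAV-Cre (the authors' deposited table). In the same variation, the junction between 59675195 and 59675568 fell from 0.145 to 0.009 (the authors' deposited table). The entry between the adjacent positions 59675482 and 59675483 fell more, from 0.573 to 0.140 (the authors' deposited table). No switch between the paired exons is therefore read from these values. Pkm had no listed event by junction usage. Actn1, an actin crosslinker with a pair of mutually exclusive exons, used one of them at 0.656 with AAV-GFP and 0.869 with AAV-Cre (the authors' deposited table). The other of the pair stood at 0.340 and 0.117 (the authors' deposited table). By junction usage the same pair differed by 0.190 either way in that authors' deposited table and did not pass (q = 0.466).

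Tpm1, a tropomyosin gene, moved from 0.711 to 0.958 at its changed junction (the authors' deposited table). Neither of its junction usage events in the authors' deposited table passed: one at a 5' splice site had a largest change of 0.054 (q = 0.519), and one at a 3' splice site had no finite change (q = 0.563). Hnrnpr, an hnRNP gene, moved from 0.986 to 0.642 at its main junction (the authors' deposited table). Its composite event by junction usage passed, with a largest finite change of 0.390 either way and q = 0.00308 in the authors' deposited table; its other junctions had no finite change there. A further event of Hnrnpr, at a 5' splice site, had a difference of -0.483 at one junction and missed the threshold (q = 0.371) in the authors' deposited table. Among MBNL targets Bin1, a membrane-curving adaptor gene, moved from 0.563 to 0.1 at its most changed junction (the authors' deposited table). In the other variation of Bin1, the junction between chromosome 18 positions 32431742 and 32431983 moved less, from 0.235 to 0.025 (the authors' deposited table). The Bin1 event by junction usage had no finite change and missed the threshold (q = 0.371) in the authors' deposited table. In the same list was Fn1, the fibronectin gene. By one junction, its alternative exon was included at a PSI of 0.005 with AAV-GFP and 0.388 with AAV-Cre (the authors' deposited table). By the junction at the other end of this exon, the values were 0.106 and 0.453 (the authors' deposited table). The same exon rose by junction usage, by 0.291 with q = 0.0291 in the authors' deposited table. Numb, an inhibitor of Notch signalling, and the cytoskeletal gene Add1, both named after their values were seen, were listed but not called. Their cassette exons had differences of -0.742 (q = 0.176) and -0.275 (q = 0.522) in the authors' deposited table. Whether any of these follows from the change in Ptbp1 or Mbnl2 was not tested.

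The genes whose most changed junction had the most similar pair of PSI values were found by Euclidean distance over the 2 groups, among 340 other genes outside the dense windows. Closest to Ptbp1 (0.463 and 0.102) was Maf1, a repressor of RNA polymerase III, at 0.472 with AAV-GFP and 0.1 with AAV-Cre (the authors' deposited table), a distance of 0.009. Next came Sidt2, a lysosomal membrane protein, at 0.452 and 0.084, and Wbp1l at 0.466 and 0.144 in the authors' deposited table. For the Mbnl2 skipping junction (0.142 and 0.496) the closest was Dnajc5, a chaperone of synaptic vesicles, at 0.131 and 0.506 (the authors' deposited table), a distance of 0.015. Gm26773 followed at 0.156 and 0.534, and Myef2 at 0.087 and 0.514, in the authors' deposited table. With 2 values per gene, such likeness only describes the levels.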

How the data were processed

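Paired-end stranded mRNA libraries of 4 AAV-Cre and 4 AAV-GFP samples were made, per the labels' protocols. FastQC, STAR and the build mm10 are named, per the submitters' processing notes, with versions not given in the sources used here. The authors' first deposited table gives expected PSI, as a fraction, per junction and group, in a MAJIQ and VOILA column layout, per the file headers. Its deposited change has the sign of AAV-GFP minus AAV-Cre and was turned round. Its probability column was not used. The second table lists JUM events at p below 0.05, with the authors' p-value, q-value and change, per the file headers. Neither gives library values or depths, so replicate error is unknown and no tests were added.

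Change was the difference of the group PSI. Exons of the tables were matched within 2 nt on one strand, with 1 inclusion and 1 skipping junction each. Annotation and sequences came from GENCODE vM21 (GRCm38, the assembly of mm10), and reading frames were translated from its transcripts. No genome sequence was used. Named genes were Ptbp1, Mbnl2, Srsf3, the called genes of the regulator and target lists by size (up to 8), and the 3 genes nearest to each member in group PSI. Of the 25 PTB target names, 24 are in GENCODE vM21. The members and lists were chosen with earlier results of these data known. On simulated tables without noise, the code returned the calls that the same thresholds had set. This checks the reading of the values and not whether the thresholds suit the data. Alternatives changed the sizes, the q-value and the table. Python 3.11.15, numpy 2.4.6 and matplotlib 3.10.9 were used.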

Additional observations from a re-analysis of the deposited data

How the results depend on the processing

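Both Ptbp1 junctions and 2 of 3 Mbnl2 junctions passed sizes of 0.1, 0.2 and 0.3 alike. Of all 6866 junctions, 22.8% passed 0.2. The 2 Ptbp1 changes mirror each other, and those of the 2 Mbnl2 junctions nearly do. The genes were chosen from this contrast, so nothing is read from these counts. With the authors' expected change in place of the difference of group PSI, the Ptbp1 junctions changed by 0.379 and -0.379 and the Mbnl2 junction to the exon of 36 nt by -2.46e-05; those of the Mbnl2 exon of 95 nt moved by less than 0.005. By junction usage the changes were -0.136 for the Ptbp1 linker exon and -0.113 for the Mbnl2 exon. With p below 0.05 and a size of 0.1, 1 Ptbp1 exon would be called in place of 0, and with a q-value of 0.05 and a size of 0.2, 0 Mbnl2 exons in place of 1. These last settings were chosen after seeing the data. Of all local variations, 817 were called, 517 at a size of 0.3 and 436 without the dense windows. By junction usage 57 events were called, and 321 with p below 0.05 and a size of 0.1. Called regulators and targets numbered 6, and 9 with that p rule. Neither member's variation was listed from both of its ends, so that alternative gave no value. No replicate could be left out, and no paired analysis was possible because each table holds 1 value per group or comparison. The depth of each library is unknown, so no counting error can be given.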
